A study of Mus musculus with 10 samples.

Results

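Zscan4b, Zscan4c, Zscan4d, Zscan4e, Zscan4f and Zfp352, 6 genes that mark the two-cell state, were followed through the 10 RNA-Seq libraries of a study of the histone chaperone DAXX in murine embryonic stem cells (mESCs). They were picked by name from a list of 9 (Zscan4a to Zscan4f, Tcstv1, Tcstv3 and Zfp352). The 6 are rows of the gene table, which has 20325 rows, and all 6 were among the 13201 genes tested. Zscan4a, Tcstv1 and Tcstv3 were not analysed here.

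The 10 libraries hold biological duplicates of 5 lines. Daxx-/- mESCs (strain 129/SvEv) lack DAXX, and Daxx-/- + WT mESCs (genotype Daxx -/- + Daxx WT in the labels) are the same line with a FLAG-tagged murine DAXX transgene. H3.3 KO mESCs (strain 129 x C57BL/6J) lack the histone variant H3.3. They were either left as they were, or given a FLAG-HA-tagged H3.3 transgene that was wild-type (H3.3 KO + WT) or carried a pair of alanine substitutions. The labels spell this mutant L126A-L130A, where the study's text has isoleucine at the second position, and it was made as an H3.3 that binds DAXX without entering nucleosomes. Transgenes were carried by lentivirus under an EF1 promoter, with puromycin selection, and the sources used here do not say whether a line is 1 clone. All lines were grown without feeders in 2i+LIF, a serum-free medium that holds mESCs in the naive state. The comparisons address what returning DAXX, H3.3 or the mutant H3.3 does to the 6 genes. The Daxx-/- and H3.3 KO lines differ in strain, so strain and genotype cannot be told apart between them.

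In the mouse embryo the two-cell stage is when the embryo's own genome is first broadly transcribed. The factor Dux and endogenous retroviral promoters then drive a short burst of genes that includes Zscan4, Zfp352 and Tcstv1/3. In culture a small and changing fraction of mESCs passes through a similar state, and repressors such as TRIM28, SETDB1 and the histone chaperone CAF-1 keep most cells out of it. Zscan4 proteins have a SCAN domain and zinc fingers and are known for their part in telomere maintenance in mESCs. Zfp352 encodes another zinc-finger protein of the early embryo. In bulk RNA, fewer cells in the state and less RNA per cell cannot be told apart.

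The Zscan4 genes are near-identical copies in 1 cluster of chromosome 7, which bears on how their reads can be assigned. RefSeq lists 9 Zscan4 entries there in the GRCm38.p6 assembly, of which Zscan4e is a pseudogene and Zscan4a a transcribed pseudogene. RefSeq promoters (300 bases, from 250 before to 50 after the annotated start) were matched for 5 of the 6 genes, and none was matched for Zscan4e. They are printed to show how alike the copies are and how unlike Zfp352. Positions are chr7:10905001-10905300 on the minus strand for Zscan4b, chr7:11005495-11005794 on the plus strand for Zscan4c, chr7:11166099-11166398 on the minus strand for Zscan4d, chr7:11397665-11397964 on the plus strand for Zscan4f and chr4:90218570-90218869 on the plus strand for Zfp352, all in GRCm38.p6. The sequences run 5′ to 3′, and capitals mark TATAAAA, a classic core promoter element, and TGATTCAA, the first letters of the sequence that Dux is known to bind.
Zscan4b: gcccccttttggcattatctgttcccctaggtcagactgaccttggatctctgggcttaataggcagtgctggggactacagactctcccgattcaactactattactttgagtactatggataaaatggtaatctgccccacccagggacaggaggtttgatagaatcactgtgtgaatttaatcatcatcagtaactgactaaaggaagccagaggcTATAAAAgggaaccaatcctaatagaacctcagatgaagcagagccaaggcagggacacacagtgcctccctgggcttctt
Zscan4c: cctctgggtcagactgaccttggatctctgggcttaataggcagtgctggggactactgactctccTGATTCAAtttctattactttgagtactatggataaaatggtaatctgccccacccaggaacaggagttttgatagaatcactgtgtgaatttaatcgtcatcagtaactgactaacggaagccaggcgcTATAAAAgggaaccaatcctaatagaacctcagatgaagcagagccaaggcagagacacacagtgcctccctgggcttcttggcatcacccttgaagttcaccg
Zscan4d: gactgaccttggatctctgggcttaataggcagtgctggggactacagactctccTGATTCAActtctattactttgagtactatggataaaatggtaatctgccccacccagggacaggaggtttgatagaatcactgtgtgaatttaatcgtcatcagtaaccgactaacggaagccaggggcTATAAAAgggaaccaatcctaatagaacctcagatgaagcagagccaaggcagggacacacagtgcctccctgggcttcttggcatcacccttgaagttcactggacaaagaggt
Zscan4f: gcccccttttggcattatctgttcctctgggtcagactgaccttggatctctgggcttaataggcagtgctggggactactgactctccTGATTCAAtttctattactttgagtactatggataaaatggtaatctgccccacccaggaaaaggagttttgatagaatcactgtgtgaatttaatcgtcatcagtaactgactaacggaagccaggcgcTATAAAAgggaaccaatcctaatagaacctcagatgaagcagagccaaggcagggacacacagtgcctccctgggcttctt
Zfp352: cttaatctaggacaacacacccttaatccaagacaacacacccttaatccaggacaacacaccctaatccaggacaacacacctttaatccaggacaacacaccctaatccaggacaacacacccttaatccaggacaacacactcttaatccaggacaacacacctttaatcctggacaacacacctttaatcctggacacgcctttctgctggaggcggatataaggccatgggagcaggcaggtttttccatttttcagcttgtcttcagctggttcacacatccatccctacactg

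Where the Zscan4 promoters overlap when aligned, they shared 95.3% to 99.3% of their bases, with the closest pair Zscan4c and Zscan4f (275 of 277 bases). The annotated starts are offset between copies. TATAAAA stood once in each of the 4 Zscan4 promoters, beginning 31 bases before the start in Zscan4b and Zscan4f, 54 in Zscan4c and 65 in Zscan4d, and in 5.48% of 32851 RefSeq promoters of the same length on either strand. TGATTCAA stood once in Zscan4c, Zscan4d and Zscan4f but not in Zscan4b, and in 0.581% of all promoters. Both strands were searched, and the motifs do not overlap each other. Zfp352 held neither in its window. These matches describe letters only.

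Library totals were between 15463625 and 21396585 expected counts. Levels below are scaled CPM, that is, expected counts brought to a common library size with median-of-ratios factors and not divided by gene length, so the 6 genes are not ranked against each other. A count of 0 allows up to 3 counts, or 0.149 to 0.202 scaled CPM, for counting error only. The targeted gene Daxx was at 82.5 and 72.9 in Daxx-/- mESCs and at 206 and 206 in Daxx-/- + WT mESCs, so the libraries labelled Daxx-/- kept reads of the gene. Daxx was at 61.9 and 61.5 in H3.3 KO, 62.3 and 59.3 in H3.3 KO + WT and 100.8 and 67.4 in L126A-L130A mESCs. The Daxx-/- level was thus not below that of the H3.3 KO and H3.3 KO + WT lines. The H3.3 gene H3f3a was at 382 to 494 in the 4 libraries of the Daxx lines and at 2.84 to 10.9 in all 6 that lack endogenous H3.3. H3f3b, the other H3.3 gene, was at 509 and 720 in H3.3 KO mESCs, and at 139 to 386 with an H3.3 transgene. In the Daxx lines H3f3b was at 313 and 380 in Daxx-/- and at 116 and 84.3 in Daxx-/- + WT mESCs. These H3.3 genes were named after their values were seen, and a count per gene does not show whether its reads come from the deleted part. The 7 of 8 listed pluripotency markers in the table, Pou5f1 among them, summed to between 2800 and 4472 in every library, against 6.47 to 47.4 for 6 fibroblast, 4.61 to 16.8 for 6 primitive endoderm and 7.95 to 24.0 for 5 trophoblast markers.

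Summed over the 5 Zscan4 rows, Daxx-/- mESCs had 49.1 scaled CPM in replicate 1 and 11.98 in replicate 2. Daxx-/- + WT mESCs had 66.2 and 6.23. Both lines held 1 high and 1 low library. H3.3 KO mESCs had 118 and 165, and H3.3 KO + WT mESCs had 111 and 166. L126A-L130A mESCs had 1.82 and 31.3. The 4 libraries of H3.3 KO and H3.3 KO + WT mESCs (110.6 to 165.6) lay above the 4 of the Daxx lines (6.23 to 66.2) and above both L126A-L130A libraries. By line mean the order was H3.3 KO (141.5 ± 33.4), H3.3 KO + WT (138.1 ± 38.9), Daxx-/- + WT (36.2 ± 42.4), Daxx-/- (30.5 ± 26.2) and L126A-L130A (16.6 ± 20.8), as mean ± SD with n = 2 each. The first pair in that order overlapped each other, as did the last 3 lines, whose SDs were near or above their means.

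**Figure D1:**
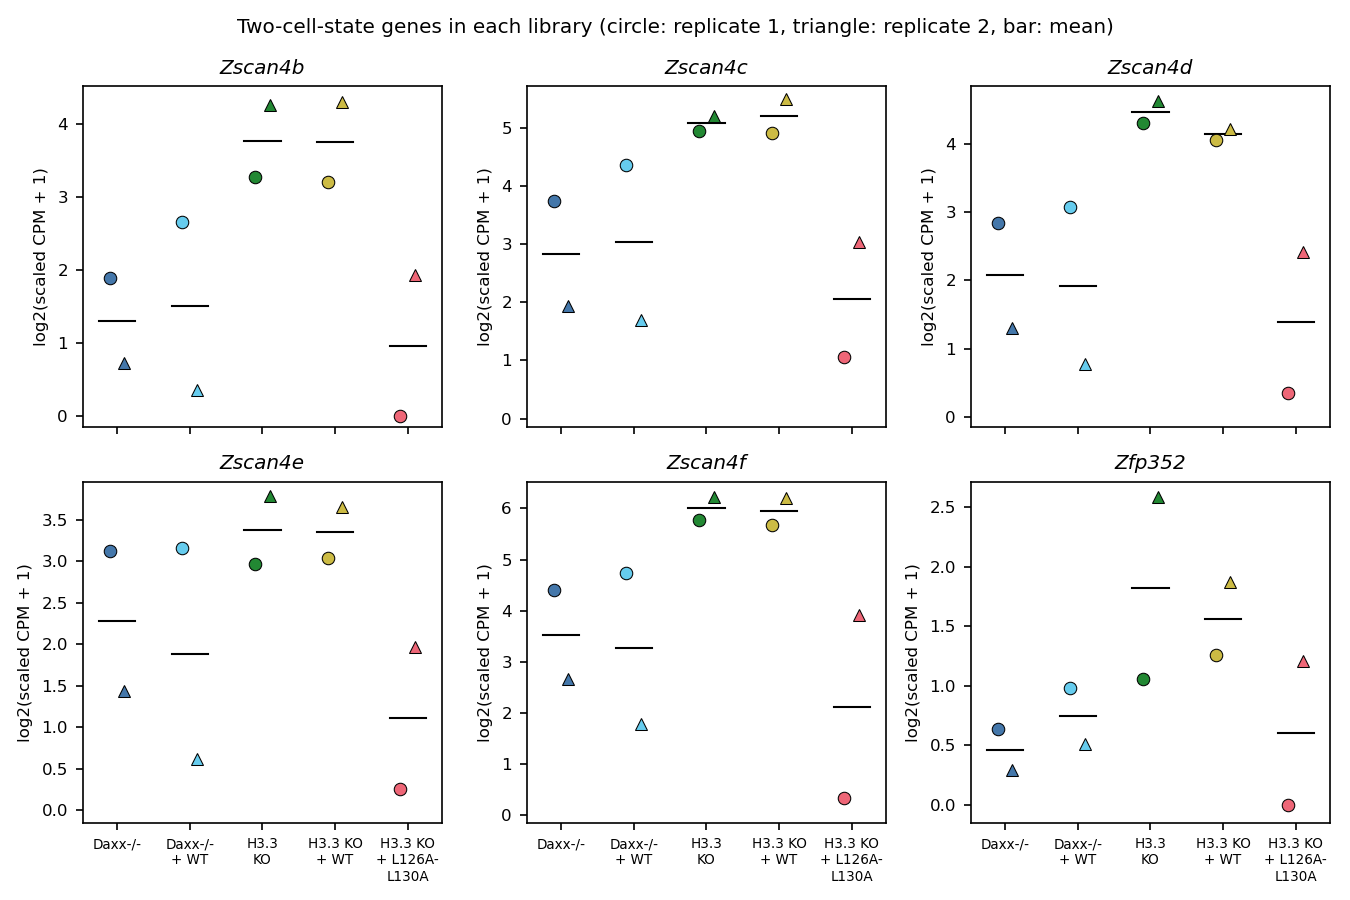
Level of each two-cell-state gene as log2(scaled CPM + 1) in the 5 lines, with a circle for replicate 1, a triangle for replicate 2 and a bar for their mean on that scale. Triangles lie below circles in both Daxx lines and above them in the 3 H3.3 lines, and both L126A-L130A libraries lie low.

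Zscan4f was at 20.0 and 5.32 in Daxx-/- mESCs and at 25.8 and 2.45 in Daxx-/- + WT mESCs. It was at 53.7 and 74.2 in H3.3 KO, 50.2 and 73.2 in H3.3 KO + WT and 0.253 and 14.0 in L126A-L130A mESCs. Both L126A-L130A libraries lay below every library of the other H3.3 lines, and the first of them rests on 3.75 expected counts. Zscan4c followed the same pattern, with 12.4 and 2.82 in Daxx-/-, 19.8 and 2.26 in Daxx-/- + WT, 30.0 and 36.3 in H3.3 KO, 29.4 and 44.5 in H3.3 KO + WT and 1.10 and 7.23 in L126A-L130A mESCs. Zscan4d had 6.18 and 1.46, 7.38 and 0.710, 18.7 and 23.8, 15.6 and 17.7, and 0.274 and 4.34 in the same order of lines. In Zscan4f, Zscan4c and Zscan4d the Daxx lines lay below the H3.3 KO and H3.3 KO + WT lines in every library.

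Zscan4b had 2.69 and 0.663 in Daxx-/-, 5.31 and 0.284 in Daxx-/- + WT, 8.67 and 18.1 in H3.3 KO, 8.20 and 18.7 in H3.3 KO + WT, and 0 and 2.82 in L126A-L130A mESCs. The zero is a count of 0 in a library where that allows up to 0.202 scaled CPM. Zscan4e, the pseudogene, had 7.71 and 1.71, 7.90 and 0.527, 6.82 and 12.8, 7.24 and 11.5, and 0.197 and 2.91 in that order of lines. Unlike the other Zscan4 rows, its replicate 1 libraries of the Daxx lines were above the replicate 1 libraries of H3.3 KO and H3.3 KO + WT mESCs. Zfp352 was low in all lines, with 0.554 and 0.222, 0.979 and 0.428, 1.08 and 5.01, 1.40 and 2.66, and 0 and 1.31. Its second L126A-L130A library lay above the first H3.3 KO library, so those lines overlapped for Zfp352. Of the 6 genes, Zfp352 alone would not have passed the filter on low values without the H3.3 KO and H3.3 KO + WT libraries.

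The split of counts among the Zscan4 rows was read per library, as the share of the summed Zscan4 counts with a Wilson interval. The shares depend on how RSEM divided reads among copies and are not per length, so they are compared between libraries and not between genes. Zscan4e took 15.7% (95% interval 13.5 to 18.3) and 14.3% (10.3 to 19.7) in Daxx-/- mESCs, 11.9% (10.3 to 13.8) and 8.47% (4.32 to 14.7) in Daxx-/- + WT mESCs, and 5.79% to 7.73% in the 4 libraries of H3.3 KO and H3.3 KO + WT mESCs. It took 10.8% (3.85 to 28.1) and 9.29% (7.15 to 11.9) in L126A-L130A mESCs. The Daxx-/- intervals lay above all 4 H3.3 KO and H3.3 KO + WT shares, while the interval of the second Daxx-/- + WT library, with 111 Zscan4 counts, did not. The first L126A-L130A library had 27 Zscan4 counts, of which 16 fell to Zscan4c and 4 to Zscan4f, which is too few to describe its split. Intervals cover counting error only.

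**Figure D2:**
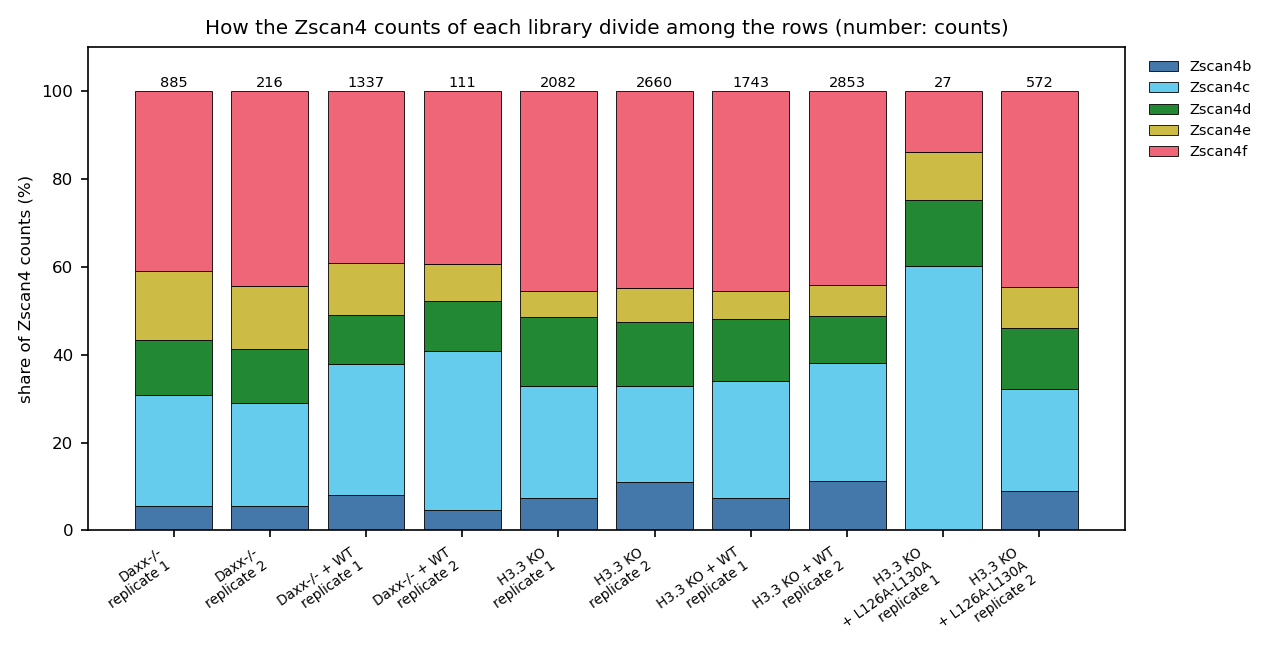
Share of the summed Zscan4 counts, in percent, that each of the 5 Zscan4 rows took in each library, with the number of counts above each bar. The Zscan4e segment is wider in the Daxx-/- libraries (15.7% and 14.3%) than in the H3.3 KO and H3.3 KO + WT libraries (5.79% to 7.73%), and the first L126A-L130A bar rests on 27 counts.

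In both Daxx lines and in L126A-L130A mESCs the replicates differed more in the Zscan4 genes than in most genes. Replicate 1 was higher for 6 of 6 genes in Daxx-/- and in Daxx-/- + WT mESCs, and replicate 2 was higher for 6 of 6 in each of the 3 H3.3 lines. Over the 5 lines, replicate 1 was higher for 48.7% to 50.7% of all genes tested. The higher library exceeded the lower one in summed Zscan4 by 4.10-fold in Daxx-/-, 10.6-fold in Daxx-/- + WT, 1.40-fold in H3.3 KO, 1.497-fold in H3.3 KO + WT and 17.2-fold in L126A-L130A mESCs. In Daxx-/- + WT mESCs, 20 genes (0.152% of all tested) differed at least 4-fold between the replicates on scaled CPM + 1, and the 5 Zscan4 rows were among them, with Gm4340 the only other listed two-cell-state gene. At 2-fold it was the same 5 of 6, against 2.23% of genes. In L126A-L130A mESCs, 43 genes (0.326%) did, and these included Zscan4d, Zscan4f and 5 other listed two-cell-state genes (Gm2022, Gm4027, Gm4340, Gm5662 and Gm8300). All 6 genes passed 2-fold there, against 5.11% of genes. In Daxx-/- mESCs none of the 6 passed 4-fold (0.833% of genes did) and 5 passed 2-fold (9.99% did). In H3.3 KO mESCs Zfp352 alone of the 6 passed 2-fold (2.13% of genes did) and in H3.3 KO + WT mESCs Zscan4b alone (0.636% did), and none of the 6 passed 4-fold in either (0.174% and 0.0379% did).

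**Figure D3:**
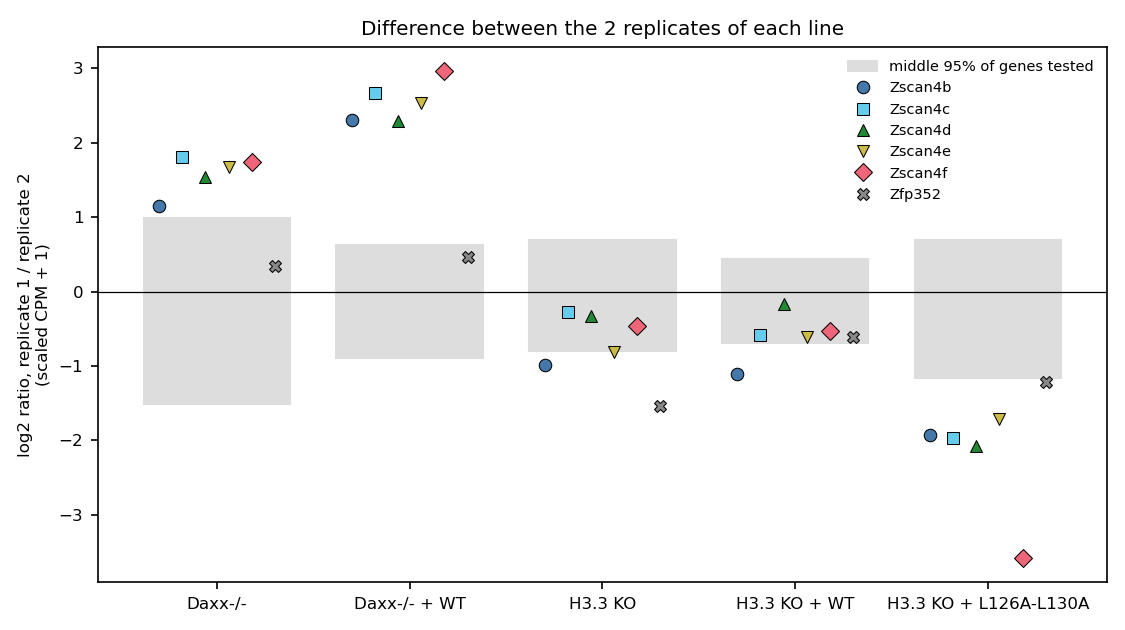
Log2 ratio of replicate 1 to replicate 2 on scaled CPM + 1 for each of the 6 genes (symbols) in each line, against a grey box that holds the middle 95% of all genes tested. The Zscan4 symbols lie above the box in both Daxx lines and below it in L126A-L130A mESCs.

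Because the rows share reads and a library, their agreement across libraries is only a description. Over the 10 libraries, log2(scaled CPM + 1) of the 5 Zscan4 rows correlated with each other at Pearson r from 0.936 to 0.987, and at 0.941 to 0.990 after each line's mean was removed. Zfp352 correlated with them at 0.789 to 0.901, and at 0.616 to 0.796 within lines. Of the other genes tested, the 8 closest to the summed Zscan4 level were Gm4340 (r = 0.987), Gm8300 (0.987), BB287469 (0.980), Gm5662 (0.977), Gm2022 (0.964), Gm2016 (0.957), Gm4027 (0.944) and Gm7102 (0.941), each over 10 libraries. RefSeq places 6 of these 8 on the same chromosome as each other in GRCm38.p6, which was not compared with the chromosome of the Zscan4 cluster. On the list of other two-cell-state genes are 5 of the 8. Gm4340, the closest, was at 24.3 and 11.96 in Daxx-/-, 40.3 and 6.10 in Daxx-/- + WT, 70.5 and 136 in H3.3 KO, 83.5 and 143 in H3.3 KO + WT and 1.46 and 30.0 in L126A-L130A mESCs.

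Returning DAXX left the 6 genes without a detectable change. In Daxx-/- + WT against Daxx-/- mESCs, 0 of 6 were DE, meaning an adjusted p under 0.05 and at least a 2-fold change in edgeR's quasi-likelihood test with Benjamini-Hochberg adjustment over all genes, where 1.08% of all genes tested were. At an unadjusted p under 0.05 there were 0 of 6 as well (21.8% of all genes), and DESeq2 called 0. The log2 fold changes were between -0.15 (Zscan4e) and 0.89 (Zfp352), with a median of 0.35 against -0.02 for all genes, standard errors of 1.00 to 1.37 and adjusted p-values of 0.709 to 0.967. In none of the 6 were both rescued libraries on 1 side of both Daxx-/- libraries (24.7% of all genes lay lower and 21.7% higher). The sign rests on single libraries. Without Daxx-/- + WT replicate 1 the 5 Zscan4 rows were at -3.20 to -1.76, and without Daxx-/- replicate 1 at 1.30 to 2.07.

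Returning WT H3.3 gave values close to those of H3.3 KO mESCs. Again 0 of 6 genes were DE, against 0.25% of all genes tested, with 0 of 6 at an unadjusted p under 0.05 (13.3% of all genes) and 0 by DESeq2. The log2 fold changes ran from -0.58 (Zfp352) to 0.16 (Zscan4c), with a median of -0.05 against 0.02 for all genes and adjusted p-values of 0.870 to 0.999. Their standard errors of 0.96 to 1.25 leave room for a 2-fold change in either direction, so a change of that size was not detectable here. Zscan4d was the 1 gene with both WT H3.3 libraries below both H3.3 KO libraries (26.8% of all genes were), with a value of -0.35 ± 1.04 (SE) on the log2 scale, and no gene lay above (29.3% of all genes did).

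In L126A-L130A against H3.3 KO mESCs all 6 genes had negative values that did not pass the test. The log2 fold changes were -3.13 ± 1.27 (SE) for Zscan4f, -2.97 ± 1.07 for Zscan4c, -3.17 ± 1.16 for Zscan4d, -3.19 ± 1.41 for Zscan4b, -2.61 ± 1.26 for Zscan4e and -2.15 ± 1.17 for Zfp352. Their median was -3.05, against 0.03 for all genes tested. With edgeR's quasi-likelihood test, 0 of 6 were DE (0.788% of all genes were), and adjusted p-values were 0.206 to 0.397. At an unadjusted p under 0.05 there were 3 of 6 (Zscan4c, Zscan4d and Zscan4f), as there were by DESeq2, which called 0, against 16.9% of all genes in edgeR. That count moved with the settings used. In 5 of 6, all but Zfp352, both L126A-L130A libraries lay below both H3.3 KO libraries, as did 24.2% of all genes. The size of the values, not their sign, depended on which L126A-L130A library was used. With replicate 1 alone Zscan4f was at -7.85, and with replicate 2 alone at -2.19.

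Against H3.3 KO + WT mESCs the L126A-L130A mESCs gave much the same values, from -3.19 (Zscan4b) to -1.57 (Zfp352), with a median of -2.95 against 0.00 for all genes. Both comparisons use the same L126A-L130A libraries, so they are not separate evidence. None of the 6 was DE (0.515% of all genes were), 3 of 6 had an unadjusted p under 0.05 in edgeR (12.3% of all genes), DESeq2 called 0 with 2 of 6 at that level, and edgeR's adjusted p-values were 0.270 to 0.690. All 6 genes had both L126A-L130A libraries below both H3.3 KO + WT libraries, as did 23.2% of all genes. With 2 libraries against 2, an exact permutation test of a single value cannot give a two-sided p under 0.33.

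**Figure D4:**
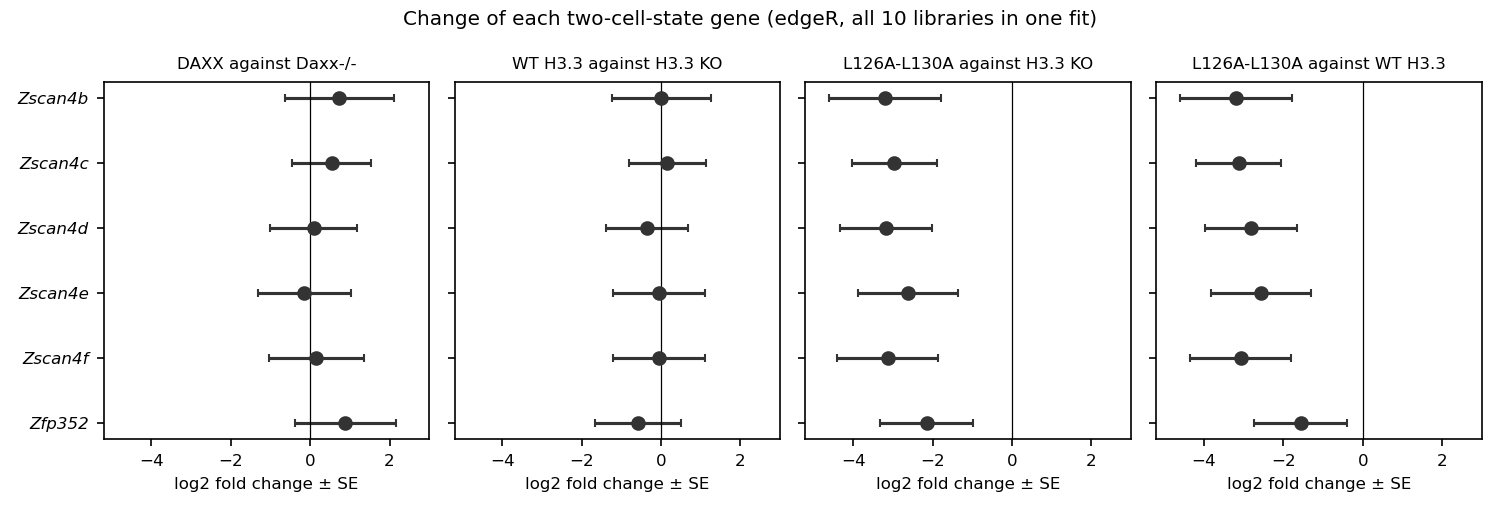
Log2 fold change of each of the 6 genes in the 4 comparisons, from edgeR's fit of all 10 libraries, with bars of 1 standard error. Values lie around 0 for DAXX (-0.15 to 0.89) and WT H3.3 (-0.58 to 0.16) and between -3.19 and -1.57 for both L126A-L130A comparisons, none of them DE.

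The difference between the kinds of rescue was tested as an interaction in the same fit. The change with WT H3.3 minus the change with DAXX was -1.47 to 0.10 over the 6 genes, with 0 of 6 called (0.0455% of all genes were) and 0 at an unadjusted p under 0.05 (13.9% of all genes). The change with L126A-L130A H3.3 minus that with DAXX was -3.92 to -2.46, with standard errors of 1.45 to 1.95, again with 0 of 6 called (0.0227% of all genes were). In the latter Zscan4c alone had an unadjusted p under 0.05 (11.2% of all genes did), with an edgeR adjusted p of 0.418. DESeq2 called 0 of 6 in both. The values with L126A-L130A H3.3 rested on single libraries. For the 5 Zscan4 rows they were at -1.22 to 0.58 without Daxx-/- + WT replicate 1, where the sign of Zscan4e turned, and at -11.59 to -5.39 without L126A-L130A replicate 2, and Zfp352 went from -1.55 without H3.3 KO replicate 2 to -9.61 without L126A-L130A replicate 2.

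Of 46 other two-cell-state genes listed, 34 are in the table and 27 were tested. With DAXX, 0 of 27 were DE and the median log2 fold change was -0.25, and with WT H3.3 there were 0 of 27, with a median of 0.16. At an unadjusted p under 0.05 there were 2 of 27 in each, against 21.8% and 13.3% of all genes, and DESeq2 called 1 and 0, against 4.02% and 1.58%. In L126A-L130A against H3.3 KO mESCs 2 of 27 fell (0.606% of all genes did), with a median of -2.79, and against H3.3 KO + WT mESCs 1 of 27 fell (0.265% did), with a median of -2.92. In these comparisons 26 of 27 values were negative (46.8% and 49.6% of all genes were), 22 and 24 had an unadjusted p under 0.05 (16.9% and 12.3%), and 24 and 26 had both L126A-L130A libraries below both of the other line (24.2% and 23.2%). Because 14 of the 27, against 2.98% of all genes, would not have passed the filter on low values without the H3.3 KO and H3.3 KO + WT libraries, these counts and medians describe the genes that passed and support nothing. Of the 13 that passed without those libraries, 12 had negative values in each comparison, 12 had an unadjusted p under 0.05 and 12 had groups apart. The shares of all genes are those given above. These 13 share the same libraries, and the list was chosen with earlier results of these data known, so these counts support nothing either. Of the 2 that fell, Dub1, a deubiquitinating enzyme with near-identical copies, was at 2.03 and 5.04 in L126A-L130A mESCs. Dub1 was at 19.5 and 23.2 in H3.3 KO and 20.6 and 31.4 in H3.3 KO + WT mESCs, and its groups did not overlap. It fell by 2.58 and by 2.87 on the log2 scale in edgeR, with adjusted p-values of 0.0363 and 0.0392. Usp26, a ubiquitin protease, was at 0 and 0.438 in L126A-L130A mESCs and at 5.89 and 11.6 in H3.3 KO mESCs, and it fell by 5.17 (edgeR adjusted p = 0.0325). Against the 2.22 and 4.30 of H3.3 KO + WT mESCs its value of -3.76 did not pass in edgeR (adjusted p = 0.0966), but did with a replicate block (edgeR adjusted p = 0.0321), with no filter (0.0451), without L126A-L130A replicate 2 (0.0481) and by DESeq2 (4.77e-05). In the Daxx lines Usp26 did not follow Zscan4, with 23.1 and 17.6 in Daxx-/- and 2.43 and 2.92 in Daxx-/- + WT mESCs, a value of -2.93 at an edgeR adjusted p of 0.0584.

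The count of DE genes on this list rested on the method and on single libraries. Of the 27 genes, 14 would not have passed the filter without the H3.3 KO and H3.3 KO + WT libraries, so these counts support nothing. AA792892, BC061212, Dub2a, Gm428 and Pramel7 are among those 14, and DESeq2 called each of them in both L126A-L130A comparisons. DESeq2 called 15 and 13 of 27 in the L126A-L130A comparisons, against 3.36% and 2.45% of all genes, and leaving out 1 library at a time moved the counts in edgeR. The 3 listed genes with the highest mean level, Gm4340, Gm5662 and Gm2022, were not DE in edgeR. DESeq2 called Gm2022 in both comparisons (adjusted p = 0.0190 and 0.0352) and Gm5662 against H3.3 KO (0.0280). Gm2022 was also DE against H3.3 KO with no filter (edgeR adjusted p = 0.0451) and with a replicate block (0.0435), and without L126A-L130A replicate 2 Gm2022 and Gm5662 both were (0.0271 and 0.0412). Gm5662 was at 0.858 and 6.98 in L126A-L130A against 31.6 and 42.9 in H3.3 KO mESCs, and Gm2022 at 0.513 and 5.44 against 24.8 and 37.6.

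**Figure D5:**
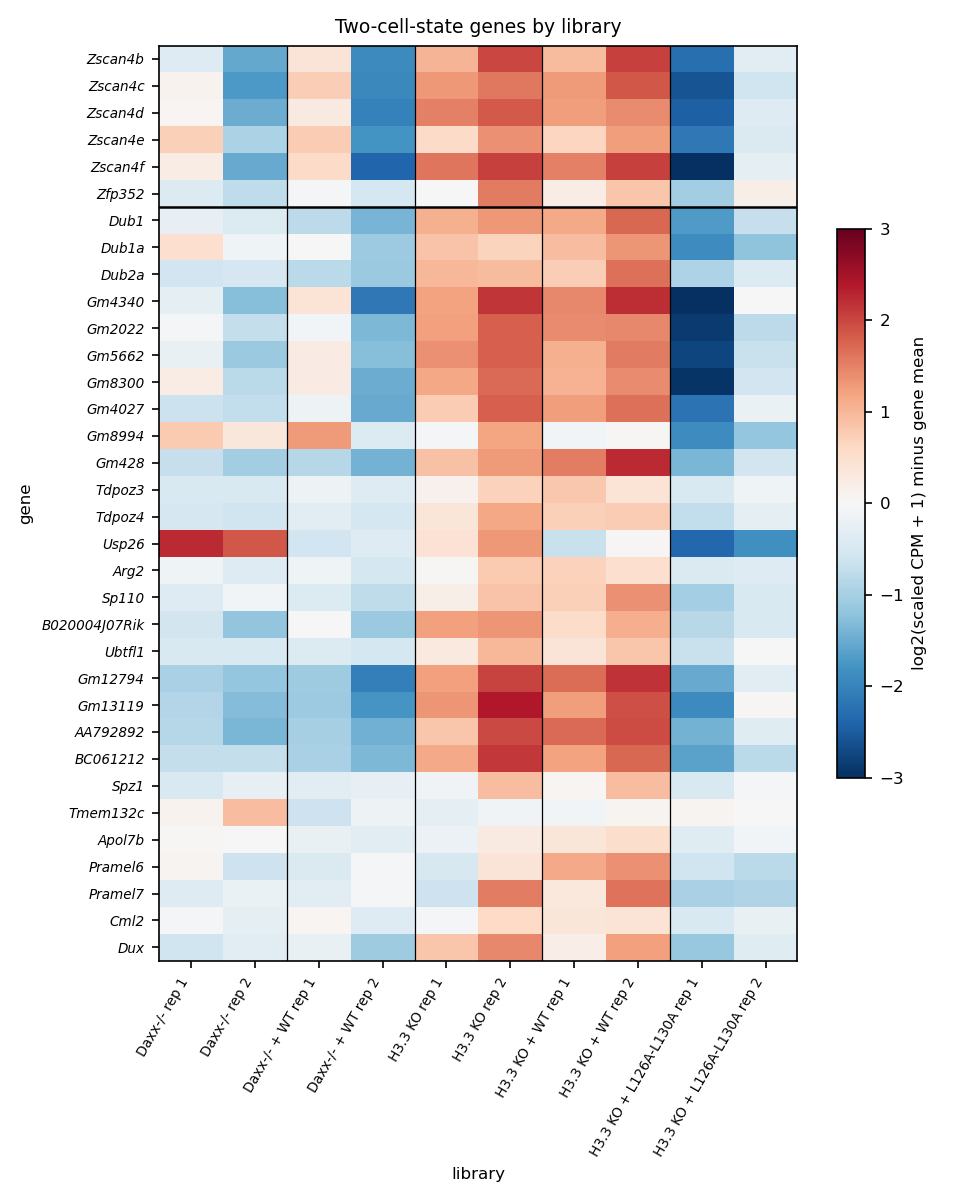
Deviation of log2(scaled CPM + 1) from each gene's mean over the 10 libraries, for the 6 genes (above the line), the 27 other two-cell-state genes tested and Dux, with 1 column per library. Most rows are high (red) in H3.3 KO and H3.3 KO + WT and low (blue) in L126A-L130A libraries, while Usp26 is highest in Daxx-/- libraries, at 23.1 and 17.6 scaled CPM. Zfp352, Dux and 14 of the 27 passed the filter on low values only through the H3.3 KO and H3.3 KO + WT libraries. For those rows the pattern is partly built in by the filter.

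Of 27 listed regulators of the two-cell state, 26 are in the table and all 26 were tested. None was DE in any of the 4 comparisons in edgeR, where 3, 2, 6 and 6 had an unadjusted p under 0.05, against 21.8%, 13.3%, 16.9% and 12.3% of all genes, and median log2 fold changes were between 0.04 and 0.17. DESeq2 called 1 in each L126A-L130A comparison, Lin28a (3.36% and 2.45% of all genes), and 0 in the others. The 3 with the highest mean level had small values. Trim28, which encodes the corepressor KAP1, had log2 fold changes of 0.00 to 0.41, Ncl (nucleolin) of 0.03 to 0.14 and Zfp42 (REX1) of -0.18 to 0.15. Dux and Lin28a were named after their values were seen. Dux, which activates the Zscan4 genes, was at 0 and 0.711 in L126A-L130A, 2.94 and 4.97 in H3.3 KO and 1.52 and 4.12 in H3.3 KO + WT mESCs. In the Daxx lines it was at 0.443 and 0.776 in Daxx-/- and 0.891 and 0.0561 in Daxx-/- + WT mESCs. The log2 fold changes of Dux with L126A-L130A, -3.38 and -2.90, did not pass edgeR's test (adjusted p = 0.199 and 0.366). Of the 26 regulators, Dux alone would not have passed the filter on low values without the H3.3 KO and H3.3 KO + WT libraries. Its values therefore support nothing. Lin28a, an RNA-binding repressor of the state, was at 238 and 134 in L126A-L130A against 71.9 and 26.6 in H3.3 KO mESCs, a value of 1.92 (edgeR adjusted p = 0.0771).

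Other cell-type markers were set beside the L126A-L130A values. The germline list, with 6 of 6 genes in the table, summed to 30.5 to 33.5 in L126A-L130A, 128 to 266 in H3.3 KO and 64.1 to 95.9 in H3.3 KO + WT mESCs. Dazl, a germ cell RNA-binding protein named after its values were seen, accounts for most of these differences, at 6.00 and 16.3 in L126A-L130A, 95.2 and 244.9 in H3.3 KO and 36.9 and 77.7 in H3.3 KO + WT mESCs. The sum was also lower in Daxx-/- + WT (42.9 to 46.7) than in Daxx-/- mESCs (80.8 to 97.1), and in H3.3 KO + WT than in H3.3 KO mESCs. In the germline list Oosp1 and Bmp15, which mark oocytes, were at 0 in each of the 6 H3.3 KO-derived libraries. Other genes of that list were not at 0. Zp3 was at 12.9 and 3.72 in L126A-L130A, 6.80 and 5.03 in H3.3 KO and 3.24 and 4.41 in H3.3 KO + WT mESCs. Ddx4 was at 11.4 and 13.3, 26.0 and 16.2, and 23.7 and 13.4 in that order of lines. Gdf9 was at 0.202 to 0.348 in these libraries. The pluripotency list summed to 3978 and 3979 in L126A-L130A, 3605 to 4259 in H3.3 KO and 4311 to 4472 in H3.3 KO + WT mESCs. The trophoblast list was higher in L126A-L130A mESCs, at 14.5 to 18.6, than in H3.3 KO (8.32 to 9.0) and H3.3 KO + WT mESCs (7.95 to 8.63), with no overlap. Eomes, named after its values were seen, makes up most of that sum. It was at 17.8 and 13.9 in L126A-L130A, 7.42 and 8.19 in H3.3 KO and 7.93 and 6.44 in H3.3 KO + WT mESCs. Cdx2, Elf5, Gata3 and Hand1 were each at 0.680 or less in these libraries. The fibroblast list was at 6.47 to 12.2 against 13.5 to 14.0 and 10.7 to 14.2, so it overlapped with H3.3 KO + WT mESCs alone, and the primitive endoderm list at 7.42 to 8.82 overlapped with both. The part of these in the values of the 6 genes was not tested.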

How the data were processed

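PolyA RNA of 5 mESC lines was sequenced in biological duplicates (10 libraries), grouped by the line in their labels. The authors aligned reads with Bowtie and estimated expression with RSEM, and the labels give the build mm9. Versions are not given in the sources used here. The table deposited is named TPM but holds expected counts for each gene, normalized for neither depth nor length. Totals were 15463625 to 21396585, and intervals cover counting error only.

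Expected counts were rounded, and the 13201 genes that reached 1 CPM in 2 or more libraries entered one edgeR (version 4.0.16, R 4.3.3) quasi-likelihood fit of all libraries with median-of-ratios factors (residual degrees of freedom 5). DE genes had an adjusted p (Benjamini-Hochberg) below 0.05 and changed 2-fold or more, over 4 comparisons and their interactions. The standard error is the log2 fold change divided by the square root of F. P-values test each difference against a spread per gene that is estimated over the replicates of all 5 lines. They do not cover variation between separately made lines of the same genotype. Alternatives were TMM factors, DESeq2 (version 1.42.0), no filter, a replicate block, each comparison fitted alone, no fold threshold, leaving out each library, and summed Zscan4 rows. The fit was tested on simulated data.

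The members and gene lists were chosen with earlier results of these data known. Named are the 9 listed genes, listed genes DE in any comparison or among the 3 highest of their list, the 8 genes most like summed Zscan4, and Daxx. Others were chosen after their values were seen. RefSeq sequences are from GRCm38.p6 and were matched by symbol. Promoters were aligned with Biopython (version 1.88), with free end gaps.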

Additional observations from a re-analysis of the deposited data

How the results depend on the processing

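Over every alternative that gave a value, 0 of the 6 genes were DE in each of the 4 comparisons and the interactions, and in the L126A-L130A comparisons all 91 values in each stayed negative (lowest edgeR adjusted p 0.0953 and 0.120). Leaving out 1 library moved the DAXX values of Zscan4b between -2.56 and 2.07, Zscan4c between -1.76 and 1.97, Zscan4d between -2.37 and 1.5, Zscan4e between -3.20 and 1.30 and Zscan4f between -2.35 and 1.42, each lowest without Daxx-/- + WT replicate 1 and highest without Daxx-/- replicate 1. For WT H3.3 against H3.3 KO the ranges were -0.71 to 0.63, -0.17 to 0.43, -0.44 to 0.47, -0.35 to 0.20 and -1.30 to 0.91 for Zscan4b, Zscan4c, Zscan4e, Zscan4f and Zfp352, and Zscan4b also turned to -0.01 with TMM factors and to 0.00 fitted alone. The change with WT H3.3 minus that with DAXX ranged from -2.07 to 2.56 (Zscan4b), -1.81 to 1.91 (Zscan4c), -1.86 to 2.02 (Zscan4d), -1.35 to 3.14 (Zscan4e), -1.47 to 2.30 (Zscan4f) and -2.25 to 0.03 (Zfp352), and for L126A-L130A H3.3 from -5.39 to 0.58 for Zscan4e. At an unadjusted p under 0.05 in edgeR, the 3 of 6 genes in each L126A-L130A comparison became 4 with the replicate block. They became 5 with no filter and 5 fitted alone, and the count also moved on leaving out 1 library. Shares of all genes at that level were not counted for these settings. A lone library left in a line was taken to vary like the other lines.

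Of the 27 other two-cell-state genes tested, 14 would not have passed the filter without the H3.3 KO and H3.3 KO + WT libraries. The counts of these genes below therefore describe the genes that passed and support nothing. Other two-cell-state genes called in L126A-L130A against H3.3 KO numbered 15 with DESeq2, 5 with no filter, 10 with the replicate block and 0 fitted alone, against 2, where 3.36%, 1.15%, 3.49% and 0.231% of all genes were called. The count also moved on leaving out 1 library, which left its line with 1 library. Against WT H3.3 the counts were 13, 6, 8 and 0 (2.45%, 0.711%, 1.77% and 0.144% of all genes), and they too moved on leaving out 1 library. With DAXX 1 gene, Usp26, was called by DESeq2, with no filter and with the block, where 4.02%, 1.33% and 4.7% of all genes were. Of the regulators, 1 (Lin28a) was called against H3.3 KO by DESeq2, with no filter and with the block, and 1 against WT H3.3 by DESeq2 and with the block. The shares of all genes called in these settings are those given above. For WT H3.3 fitted alone 1 was called (Dppa2), where 2.61% of all genes were. With DAXX, Tet2 had a log2 fold change of 0.81 in the main fit and 1.26 without Daxx-/- replicate 1. The cause was not tested.

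Same-numbered replicates of different lines deviated together at correlations from -0.04 to 0.57. Correlations were 0.55 to 0.57 among Daxx-/-, Daxx-/- + WT and L126A-L130A mESCs, and 0.27 to 0.42 between these lines and H3.3 KO + WT mESCs. They were -0.04 to 0.28 between H3.3 KO mESCs and the other lines. The labels give replicate numbers only, and the main fit did not pair the samples by them. Whether replicates of the same number share a batch was not tested. The replicate block raised calls over all genes from 143 to 621, 33 to 105, 104 to 461 and 68 to 234 and left 0 of the 6 called. Depth limits Zfp352 and the first L126A-L130A library, which had 27 Zscan4 counts. Zfp352 did not pass the filter with DAXX fitted alone, and Tcstv rows were not summed, since they were not analysed here.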
